A study of Homo sapiens with 8 samples.

Results

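The genes described here encode the proteins of the mitochondrial ribosome. They were chosen by symbol, as the protein coding genes of GENCODE on GRCh37 whose symbol is MRPL or MRPS followed by a digit, which gave 78 of 20162 protein coding genes, 49 with the symbol MRPL for the large subunit and 29 with the symbol MRPS for the small subunit. The choice by symbol used no binding value, but earlier results of these data were known when it was made. For each gene the strongest FLI1 peak centred within 3 kb of any of its transcription start sites (TSS) was taken in each library, and the gene was called bound when that peak had a -log10 q of at least 3. The q value is the false discovery rate given to a peak by the caller. Of the 78 genes, 35 were bound in at least 1 library, 21 in both cell lines and 43 in none.

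FLI1 ChIP-Seq was performed on chromatin of OCI-Ly1 and VAL, established human lymphoma cell lines of germinal center B-cell (GCB) origin, with a rabbit polyclonal antibody against FLI1. The cells of both groups carried no treatment or engineered allele in the labels, and each line had 2 replicates with 4 matched samples of input DNA in all, which were not analysed here. OCI-Ly1 replicate 1 has a list of long intervals that mark no site, so 3 libraries were used. OCI-Ly1 replicate 2 is called the OCI-Ly1 library, VAL replicate 1 the first VAL library and VAL replicate 2 the second VAL library. Nothing in the labels says whether replicates came from separate cultures. OCI-Ly1 therefore rested on 1 library, so a gene bound in 1 line only cannot be told apart from a gene bound in 1 library only, and no test between the lines was possible.

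Mitochondria keep their own ribosome, which translates the few messenger RNAs of the mitochondrial genome, all of them for subunits of the respiratory chain and the ATP synthase. Its RNA is made inside the organelle, while all of its proteins are encoded in the nucleus, made in the cytosol and imported. Many descend from proteins of the bacterial ribosome and others exist only in mitochondria. FLI1 is a transcription factor of the ETS family, whose members bind a GGAA core, most often preceded by CC, and ETS motifs are common in the promoters of housekeeping genes.

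Stretches of DNA that held the motif under peaks shared between libraries are printed to show how the motif stands at these promoters, and were chosen because they held it. They belong to 6 of the 7 members bound in all 3 libraries, followed by the 4 with the highest lower value of the OCI-Ly1 and second VAL libraries among the further members bound in both lines with the motif near the OCI-Ly1 summit, and are read from GRCh37 on the strand that carries the motif. Each is written 5′ to 3′, and capitals mark CCGGAAA or CCGGAAG, the ETS motif closest to the summit in the OCI-Ly1 library.
MRPS34, chr16:1823148-1823174, plus strand: ccggaagtcaCCGGAAGaggccggtgt
MRPS31, chr13:41345342-41345368, minus strand: aggcgccaggCCGGAAGcggaagagag
MRPL3, chr3:131221831-131221857, minus strand: gtaaaacgcaCCGGAAGtgggtccggc
MRPL20, chr1:1342701-1342727, minus strand: gaccttcgccCCGGAAGtatcgcaggg
MRPL53, chr2:74699791-74699817, plus strand: gacctccgccCCGGAAGaactcgtgca
MRPL23, chr11:1968488-1968514, plus strand: ggcgcggcctCCGGAAGcgagggggcg
MRPL10, chr17:45908942-45908968, plus strand: aaccccggggCCGGAAGcagtgggcgt
MRPL38, chr17:73901157-73901183, plus strand: acgcccggctCCGGAAGtgcccgttgg
MRPL52, chr14:23299081-23299107, minus strand: gccggggtagCCGGAAGtaggcgtggc
MRPL12, chr17:79670391-79670417, minus strand: ggcattcgagCCGGAAAtgacgctcta

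The middle of the motif lay 1 bp before the OCI-Ly1 summit in MRPL3 and 5 bp before it in MRPL20 by genome coordinate. In MRPL52 it lay 35 bp after the summit. Of the 21 members bound in both lines, 16 held the motif within 50 bp of the summit in the OCI-Ly1 library and 14 within 50 bp of the summit in the second VAL library. Over the 15 of those 16 members whose sequence was read, CCGGAAG was the form in 13 and CCGGAAA in 2, and a T followed the marked CCGGAAG in 5. The full ACCGGAAGT stood in 1 of these windows, that of MRPL3. The bases next to the motif otherwise differed from gene to gene.

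The members bound in both lines without the motif at the OCI-Ly1 summit numbered 5, which were MRPL21, MRPL34, MRPL44, MRPL54 and MRPS33. For 2 of them, MRPS33 and MRPL34, chosen after their values were seen because their peaks were among the strongest, the GGAA core nearest to the summit is printed in capitals, again from GRCh37.
MRPS33, chr7:140714804-140714829, plus strand: agtagagaaacGGAAgcttggcagct
MRPL34, chr19:17416323-17416348, minus strand: tggcagctgcaGGAAgcggctggttg

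FLI1 was called at 28 of the 78 genes in the OCI-Ly1 library, which is 35.9% (Wilson 95% interval 26.1 to 47.0%), where 19.0% of all protein coding genes were called. In the second VAL library it was also 28 of 78, with the same interval, beside 20.8% of all protein coding genes. The first VAL library had far fewer calls, 8 of 78 or 10.3% (5.29 to 18.9%), beside 3.14% of all genes. In each library the share of members lay above the share of all genes, and the interval of the members did not reach it. At a -log10 q of at least 5 it did reach it in the first VAL library, where 2 of 78 members (2.56%, 0.706 to 8.88%) and 1.78% of the other coding genes were bound. The intervals cover counting error only, and genes that share a promoter share a peak.

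Both lines had a bound peak at 21 members, 26.9% (18.3 to 37.7%), beside 12.6% of all protein coding genes. This number rested on the second VAL library, since with the first VAL library alone 7 members were bound in both lines. All 3 libraries had one at 7 members, 8.97% (4.42 to 17.4%), beside 2.73% of all genes. At least 1 library had one at 35 members, 44.9% (34.3 to 55.9%), beside 27.4%. The number of annotated start sites, which decides how much sequence is searched, had a median of 5 per gene among the members and among all others.

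**Figure D1:**
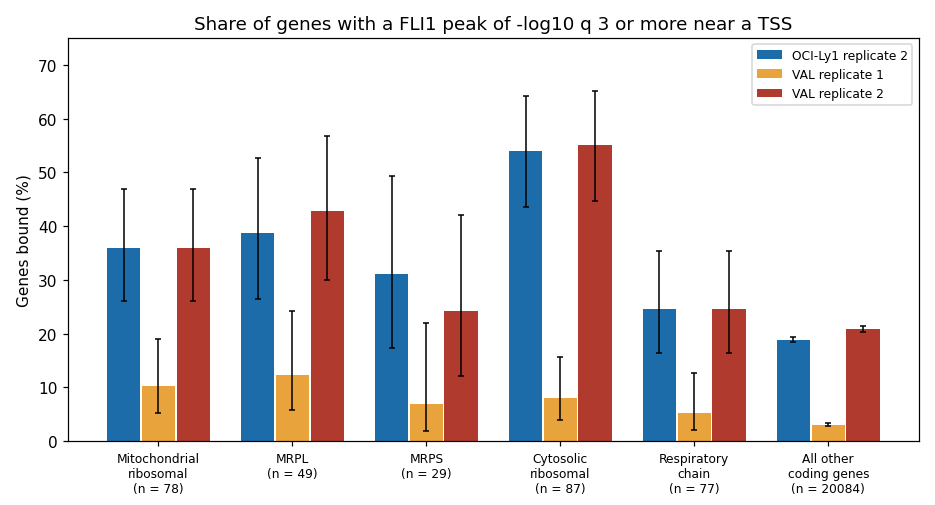
The bars give the percentage of genes bound in each of the 3 libraries for 6 sets of genes, and the error bars are Wilson 95% intervals, which cover counting error only. Mitochondrial ribosomal genes stand at 35.9% in OCI-Ly1 replicate 2, between the cytosolic ribosomal genes at 54.0% and the other coding genes at 18.9%.

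Most of the bound genes had the symbol MRPL, which is also that of 49 of the 78 members. In the OCI-Ly1 library, 19 of 49 MRPL genes were bound (38.8%, 26.4 to 52.7%) and 9 of 29 MRPS genes (31.0%, 17.3 to 49.2%). The second VAL library had 21 MRPL genes (42.9%, 30.02 to 56.7%) and 7 MRPS genes (24.1%, 12.2 to 42.1%). In these libraries 19.0% and 20.8% of all protein coding genes were called. The MRPS intervals included these shares, and the MRPL intervals lay above them. The intervals of both subunits overlapped in each library, and the difference between them was not tested. The symbols do not match the particle in every case, since the products of MRPS30 and MRPS18A are found in the large subunit. Both of these genes were bound in no library.

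Of the 47 members listed with a counterpart in the bacterial ribosome, 15 were bound in the OCI-Ly1 library (31.9%, 20.4 to 46.2%). Of the 31 members without one, 13 were bound there (41.9%, 26.4 to 59.2%). In both lines it was 9 of 47 (19.1%, 10.4 to 32.5%) and 12 of 31 (38.7%, 23.7 to 56.2%). The share of all protein coding genes was 19.0% in the OCI-Ly1 library, below both intervals there. In both lines it was 12.6%, inside the interval of the members with a bacterial counterpart and below that of the members without one. The intervals of the members with and without a counterpart overlapped as well, and no test was made.

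The members bound in all 3 libraries were MRPL3, MRPL20, MRPL21, MRPL23, MRPL53, MRPS31 and MRPS34. A further 14 were bound in the OCI-Ly1 library and the second VAL library, which were MRPL10, MRPL12, MRPL13, MRPL34, MRPL38, MRPL39, MRPL44, MRPL52, MRPL54, MRPL58, MRPS16, MRPS22, MRPS26 and MRPS33. The OCI-Ly1 library alone had 7, namely MRPL2, MRPL19, MRPL24, MRPL47, MRPS18B, MRPS18C and MRPS23. VAL alone also had 7, of which MRPL27, MRPL28, MRPL30, MRPL40, MRPL51 and MRPS14 were bound in replicate 2 and MRPL16 in both replicates. No member was bound in the first VAL library and not in the second VAL library.

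**Figure D2:**
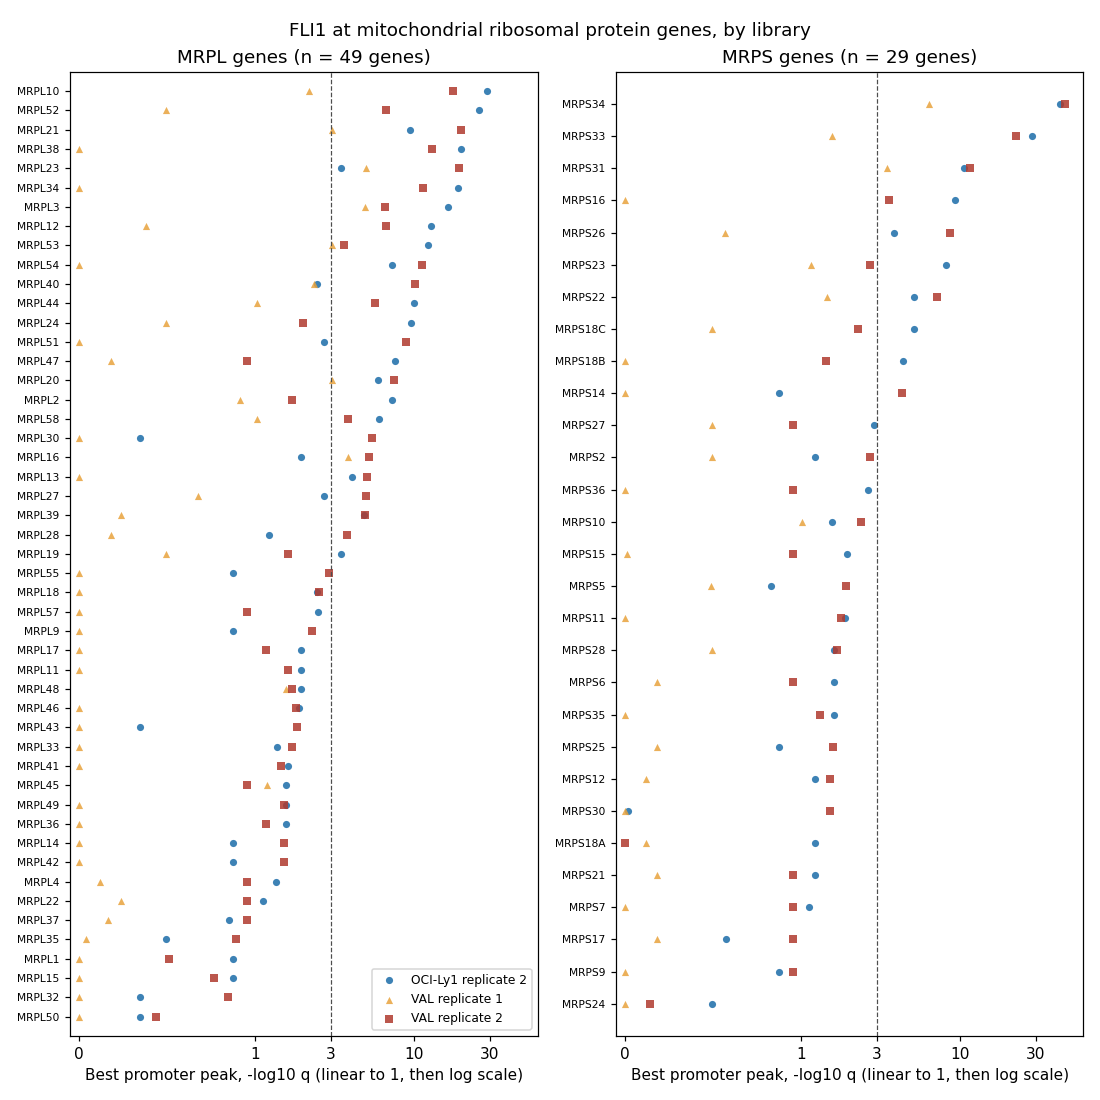
Each row is a gene and each point the -log10 q of its strongest peak within 3 kb of a start site, as circles for OCI-Ly1 replicate 2, triangles for VAL replicate 1 and squares for VAL replicate 2, with 0 where no peak was listed and a dashed line at 3. MRPS34 has the highest value in every library, and in VAL replicate 1 most genes lie at or near 0.

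MRPS34 had the strongest peak of the set in every library. It encodes a protein of the small subunit that is required for the subunit to be stable, and its gene lies at chr16:1821891-1823151 on the minus strand. Its -log10 q was 42.4 in the OCI-Ly1 library, 6.34 in the first VAL library and 45.6 in the second VAL library. From the fold and the p-value of the peak, 31, 21 and 31 reads were inferred at these summits. The summits lay 24, 45 and 40 bp upstream of the nearest start site, outside the gene. The promoter of MRPS34 held 3 ETS motifs, and the 27 bases printed above include 2 of them. The same peak was also the strongest one for its neighbours EME2 and NME3.

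By the lower of their values in the OCI-Ly1 library and the second VAL library, MRPS33 and MRPL10 came next. MRPS33, a small subunit protein not listed with a counterpart in the bacterial ribosome, had a -log10 q of 28.6 in the OCI-Ly1 library, 1.55 in the first VAL library and 22.5 in the second VAL library. Its summits in the OCI-Ly1 library and the second VAL library were 2 bp apart. MRPL10, the protein at the base of the stalk that recruits translation factors, had values of 28.9, 2.17 and 17.5. Both genes were thus strong in 2 libraries and below the threshold in the first VAL library, where 15 and 14 reads were inferred at their summits over a higher background.

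MRPL12, the stalk protein that MRPL10 anchors, had a -log10 q of 12.7 in the OCI-Ly1 library, 0.382 in the first VAL library and 6.65 in the second VAL library. Its summits lay in the UTR, 26 and 10 bp downstream of the start site in the libraries where it was bound. MRPL12 and MRPL10 thus had the same pattern over the 3 libraries, which was that of 14 members. The peak taken for MRPL12 was also the strongest of HGS in every library.

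Among the other genes of the large subunit, MRPL52 had values of 25.6, 0.495 and 6.65 in the OCI-Ly1 library, the first VAL library and the second VAL library. MRPL38 had 19.7, 0 and 13.0 in the same order, and MRPL34 had 19.0, 0 and 11.3. The peak taken for MRPL34 lay at -335 bp from its nearest start site in the OCI-Ly1 library, where minus is upstream, and was also the strongest of ABHD8. These genes had no peak past the threshold in the first VAL library. MRPL38 had no listed peak there at all.

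Apart from MRPS34, the genes bound in all 3 libraries covered a wide range of values. MRPL3, a protein of the large subunit with a bacterial counterpart, had values of 16.5 in the OCI-Ly1 library, 4.89 in the first VAL library and 6.56 in the second VAL library. MRPL23, which lines the exit of the peptide tunnel, had 3.46, 5.02 and 19.2. With 6 inferred reads in the OCI-Ly1 library, MRPL23 was among the weakest bound genes of that library, although its summits in the OCI-Ly1 library and the second VAL library fell on the same base. MRPS31 had 10.6, 3.46 and 11.5.

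The remaining 3 genes of that group were near the threshold in the first VAL library. MRPL20 had values of 5.91, 3.05 and 7.42 in the OCI-Ly1 library, the first VAL library and the second VAL library. For MRPL21 they were 9.40, 3.03 and 19.8, and for MRPL53 12.2, 3.03 and 3.598. MRPL16, bound in both VAL replicates, had 1.94, 3.81 and 5.18. At a threshold of 5, MRPS34 alone remained bound in all 3 libraries.

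Several genes counted for 1 line lay close to the threshold in the other. MRPL27 and MRPL51 both had 2.71 in the OCI-Ly1 library, with 5.005 and 8.84 in the second VAL library. MRPS23 had 8.14 in the OCI-Ly1 library and 2.701 in the second VAL library. The values in the line without a call ran from 0.95 to 2.7 for the 7 genes of OCI-Ly1 and from 0.34 to 2.71 for the 7 genes of VAL, taken from the second VAL library and the OCI-Ly1 library.

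The 43 members bound in no library were MRPL1, MRPL4, MRPL9, MRPL11, MRPL14, MRPL15, MRPL17, MRPL18, MRPL22, MRPL32, MRPL33, MRPL35, MRPL36, MRPL37, MRPL41, MRPL42, MRPL43, MRPL45, MRPL46, MRPL48, MRPL49, MRPL50, MRPL55, MRPL57, MRPS2, MRPS5, MRPS6, MRPS7, MRPS9, MRPS10, MRPS11, MRPS12, MRPS15, MRPS17, MRPS18A, MRPS21, MRPS24, MRPS25, MRPS27, MRPS28, MRPS30, MRPS35 and MRPS36. The protein of MRPS36 is now assigned to the alpha-ketoglutarate dehydrogenase complex and not to the ribosome. Their highest value was 2.91, that of MRPL55 in the second VAL library. MRPS27 reached 2.89 in the OCI-Ly1 library and MRPS2 reached 2.701 in the second VAL library. In all, 8 of the 43 had a value of at least 2 in a library. Their median was 1.22 in the OCI-Ly1 library and 1.17 in the second VAL library. At these depths such values do not show that FLI1 is absent from a promoter.

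Calls rested on few reads. Bound members had a median of 11.5 inferred reads at the summit in the OCI-Ly1 library (6 to 31), 15 in the first VAL library (13 to 21) and 10 in the second VAL library (6 to 31). The median local background at these summits was 0.467, 2.67 and 0.410 reads. No bound protein coding gene had fewer than 6 reads in the OCI-Ly1 library and the second VAL library or fewer than 8 in the first VAL library. The part of this background in the low number of calls of the first VAL library was not tested. Over all 78 genes the median best -log10 q was 1.94, 0.141 and 1.79, against 1.22, 0.183 and 1.63 over the other coding genes. In the first VAL library the median of the members was therefore not above that of the other genes. No peak was listed there for 23 of the 78 members and for 5035 of the 20084 other coding genes.

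Values of the members ranked alike in the OCI-Ly1 library and the second VAL library, with a Spearman rho of 0.648 over the 78 genes, against 0.615 over the 20084 other coding genes. It was 0.457 between the VAL replicates and 0.509 between the OCI-Ly1 library and the first VAL library. These are descriptions across genes, which are not independent replicates and share promoter sequence between the lines.

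**Figure D3:**
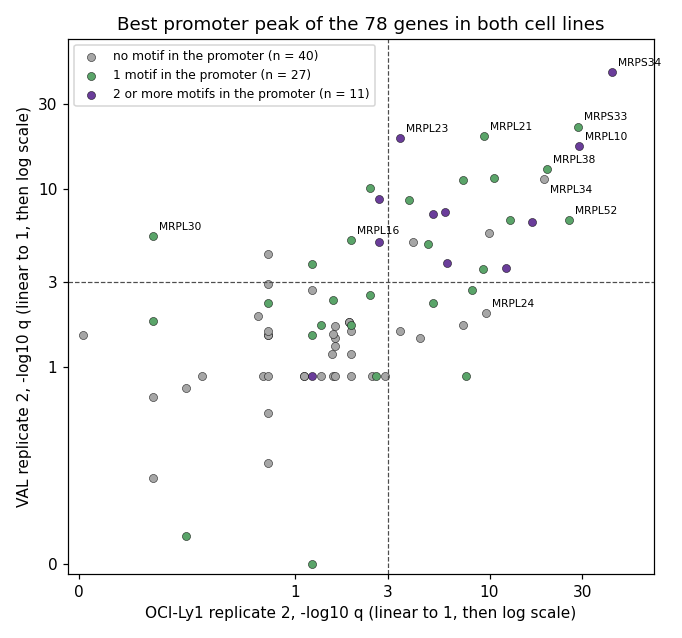
Each point is 1 of the 78 genes, placed by the -log10 q of its strongest peak in OCI-Ly1 (replicate 2, horizontal) and VAL (replicate 2, vertical) and coloured by the number of ETS motifs in its promoter, with dashed lines at 3. The upper right part holds the 21 genes bound in both lines, 18 of which had at least 1 motif in the promoter.

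The position of the summits was not used to choose the genes beyond the 3 kb window. The summits of bound members lay a median of 27.0 bp from the nearest start site in the OCI-Ly1 library, 30.5 bp in the first VAL library and 42.5 bp in the second VAL library. At other bound coding genes it was 69.0, 57.0 and 82.0 bp. Within 250 bp of a start site lay 25 of 28, 8 of 8 and 26 of 28 summits of members, beside 73.7%, 76.6% and 70.2% of those of the other bound genes. Upstream of the start lay 20, 8 and 21 of them. By annotation, 16 of the 28 summits in the OCI-Ly1 library lay outside the gene, 6 in a UTR, 3 in an intron, 2 in a non-coding exon and 1 in a coding exon. The farthest, at 1804 bp, was that of MRPL2 in the OCI-Ly1 library, past the 3′ end of the gene, and the same peak was the strongest of CUL7.

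**Figure D4:**
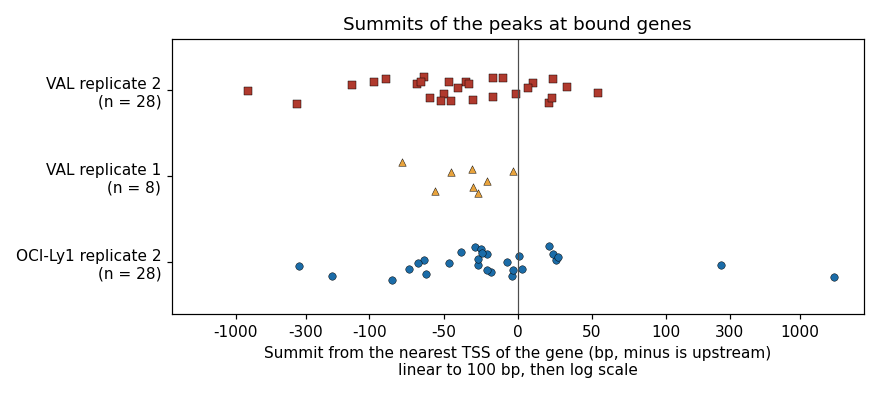
Each point is the summit of the strongest peak of a bound gene, by library, with its distance from the nearest start site of that gene in bp and upstream to the left; the height within a row is arbitrary. All 8 summits of VAL replicate 1 lie upstream, between 78 and 3 bp before the start.

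Where a member was bound in 2 libraries, the summits were close to each other. Between the OCI-Ly1 library and the second VAL library the median gap was 16 bp over 21 members, and 19 of them (90.5%) were within 50 bp, against 67.1% of the other coding genes bound in both. Between the OCI-Ly1 library and the first VAL library it was 6 of 7 members, against 82.7% of the other genes. The VAL replicates did not share this order, with 5 of 8 members (62.5%) within 50 bp and 84.6% of the other genes. The widest gap between the OCI-Ly1 library and the second VAL library was 226 bp, in MRPL13. None of these differences was tested.

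The ETS motif, CCGGAAA or CCGGAAG on either strand, lay within 50 bp of the summit in 18 of 28 bound members in the OCI-Ly1 library (64.3%, 45.8 to 79.3%). In the first VAL library it was 7 of 8 (87.5%, 52.9 to 97.8%) and in the second VAL library it was 17 of 28 (60.7%, 42.4 to 76.4%). In windows of the same length centred 250 bp to each side, the motif stood in 1 of 56, 0 of 16, which allows up to 18.75%, and 2 of 56. At the summits of the other bound coding genes the share was 50.3%, 61.4% and 43.8%, inside the interval of the members in each library. At the strongest peaks of members that were not bound it was 7 of 49, 8 of 47 and 4 of 48. At the bound summits the middle of the motif lay a median of 10.5, 10 and 17 bp from the summit.

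The promoter sequence of the genes was then read without regard to the peaks, from 250 bp before to 50 bp after the canonical start site on GRCh37. The motif was in 38 of the 78 promoters (48.7%) and in 17.9% of the 20084 others. Cytosolic ribosomal protein genes held it in 51.7% and the nuclear genes of the respiratory chain in 40.3%. At least 2 motifs were in 11 promoters of members (14.1%) and in 3.95% of the others, where matches that overlap on opposite strands count as 1. The motif nearest to the start was a median of 15 bp upstream in members and 37 bp upstream in the others, and it was within 50 bp of the start in 31 of the 38 (81.6%) against 57.4%.

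Bound genes were more frequent among promoters with the motif, in members as in other genes. With the motif, 21 of 38 members (55.3%) were bound in the OCI-Ly1 library, 8 (21.1%) in the first VAL library and 24 (63.2%) in the second VAL library. Without it the numbers were 7 of 40 (17.5%), 0 of 40, which allows a share of up to 7.5%, and 4 of 40 (10%). The other coding genes were bound in 49.4%, 9.90% and 48.9% with the motif and in 12.3%, 1.63% and 14.6% without it. Among genes without the motif, the members in the second VAL library were thus not above the others. The counts are small and no difference between members and other genes was tested within a class.

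By number of motifs, members bound in the OCI-Ly1 library were 7 of 40 with none, 13 of 27 with 1 and 8 of 11 with at least 2. In the second VAL library they were 4 of 40, 14 of 27 and 10 of 11. The other coding genes followed the same order, with 12.3%, 43.3% and 71.1% in the OCI-Ly1 library and 14.6%, 43.01% and 69.6% in the second VAL library. The 11 promoters with at least 2 motifs were those of MRPL3, MRPL10, MRPL20, MRPL23, MRPL27, MRPL51, MRPL53, MRPL58, MRPS21, MRPS22 and MRPS34, and MRPS21 was the only one of them bound in no library.

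**Figure D5:**
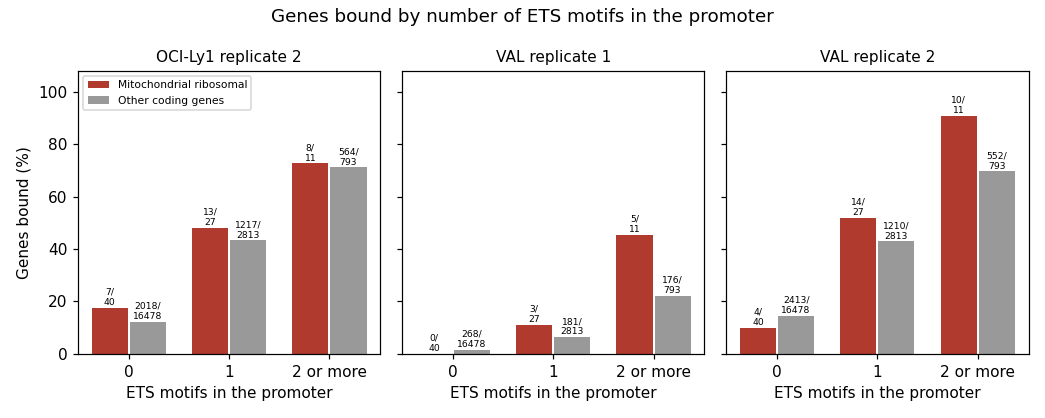
The bars give the percentage of genes bound in each library for promoters with 0, 1 or at least 2 ETS motifs, for the mitochondrial ribosomal genes and for the other coding genes, with the number bound over the number of genes above each bar. In VAL replicate 2 the members rise from 10% with none to 90.9% with at least 2, and the other genes from 14.6% to 69.6%.

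Motif and binding were not the same set. MRPL9, MRPL18, MRPL33, MRPL43, MRPL48, MRPS10, MRPS12, MRPS18A, MRPS21, MRPS24 and MRPS36, 11 genes in all, held the motif in the promoter and were bound in no library. Conversely, 8 genes were bound in at least 1 library with no motif in the promoter window, which were MRPL2, MRPL13, MRPL19, MRPL24, MRPL34, MRPL44, MRPS14 and MRPS18B. A missing match means only that these letters do not stand in this window.

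Members had promoters rich in CpG, with 74 of 78 (94.9%) at a ratio of observed to expected CpG of at least 0.6 and a GC content of at least 50%, against 64.8% of the other coding genes. Cytosolic ribosomal protein genes had such promoters in 86.2% and respiratory chain genes in 85.7%. The other coding genes with such promoters were bound in 25.5%, 4.21% and 27.4% of cases in the OCI-Ly1 library, the first VAL library and the second VAL library. The 74 members with such promoters were bound in 35.1%, 10.8% and 35.1%. Where the promoter also held the ETS motif, 54.3%, 22.9% and 62.9% of 35 members were bound, beside 53.85%, 10.9% and 52.45% of the other genes. These differences were not tested. The median GC content was 59.6% in members and 63.5% in the others, and the ratio was 0.888 and 0.773.

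Many members are paired head to head with another gene. A protein coding gene started on the opposite strand within 1 kb in 26 of 78 members (33.3%), against 9.39% of the other coding genes. The share was 31.2% in the respiratory chain genes and 16.1% in the cytosolic ribosomal protein genes. Among the other coding genes, those with such a neighbour were bound in 39.0% in the OCI-Ly1 library and those without in 16.8%. Members did not show this order, with 8 of 26 (30.8%) and 20 of 52 (38.5%) in the OCI-Ly1 library and the same numbers in the second VAL library. MRPL46 and MRPS11 face each other across 1 promoter, which was bound in no library with values of 1.89, 0 and 1.79. MRPL21 is paired with IGHMBP2, MRPL10 with LRRC46 and MRPL47 with NDUFB5, a gene of respiratory complex I.

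A shared promoter means that a peak cannot be given to 1 gene. The peak of a bound member was also the strongest of another coding gene for 14 of 28 members in the OCI-Ly1 library, 2 of 8 in the first VAL library and 13 of 28 in the second VAL library, beside 38.04%, 41.4% and 37.1% of the other bound genes. For MRPL40 the summit was at -805 bp from the start site in the second VAL library, where the value was 10.1, and the same peak was the strongest of HIRA. When each peak was given only to the coding gene with the closest start site, 29.5% of members were bound in the OCI-Ly1 library, 8.97% in the first VAL library and 28.2% in the second VAL library, against 15.3%, 2.43% and 16.9% of the others.

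Other genes that build or serve the mitochondrial ribosome were counted in the same way. Of all protein coding genes, 19.0% were called in the OCI-Ly1 library, 3.14% in the first VAL library and 20.8% in the second VAL library. Of 5 proteins of the ribosome with other symbols, AURKAIP1 was bound in both lines, with values of 15.1, 1.84 and 23.3 in the OCI-Ly1 library, the first VAL library and the second VAL library. DAP3, CHCHD1, PTCD3 and GADD45GIP1 were bound in no library. Of 24 genes for assembly and modification of ribosomal RNA, 12 were bound in the OCI-Ly1 library (50%, 31.4 to 68.6%), 2 in the first VAL library and 9 in the second VAL library (37.5%, 21.2 to 57.3%). In the first VAL library their interval, 2.32 to 25.85%, included the share of all protein coding genes.

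By the lower of the values in the OCI-Ly1 library and the second VAL library, the first of these assembly genes were METTL15, MTG2 and YBEY. METTL15, a methyltransferase for the RNA of the small subunit, had values of 14.99, 0.757 and 20.6. MTG2, a GTPase that acts in assembly of the large subunit, had 14.7, 17.1 and 60.1, the last above every gene of the ribosome itself. YBEY, an endonuclease, had 20.1, 2.604 and 12.8. MTG2 was the only one of these 3 past the threshold in the first VAL library.

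Translation factors were bound in 5 of 12 cases in the OCI-Ly1 library (41.7%, 19.3 to 68.0%), 2 in the first VAL library and 5 in the second VAL library. In the second VAL library the interval was the same and included the 20.8% of all protein coding genes. GFM2, the elongation factor G that splits the ribosome after termination, had values of 39.4, 20.7 and 32.4 in the OCI-Ly1 library, the first VAL library and the second VAL library. MTIF2, the initiation factor, had 12, 1.25 and 15.1, and the release factor MTRF1L had 6.47, 3.03 and 4.42. Of 17 synthetases that charge mitochondrial transfer RNA, 7 were bound in the OCI-Ly1 library (41.2%, 21.6 to 64.0%), 2 in the first VAL library and 6 in the second VAL library. The interval of the synthetases in the second VAL library, 17.3 to 58.7%, also included the share of all protein coding genes. EARS2, the synthetase for glutamate, had 49.96, 18.4 and 41.7. RARS2, for arginine, had 15.7, 0.0404 and 7.47, and CARS2, for cysteine, had 13.0, 2.98 and 5.45.

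In the cytosolic ribosome, 47 of 87 protein genes were bound in the OCI-Ly1 library (54.0%, 43.6 to 64.1%), 7 in the first VAL library (8.05%, 3.95 to 15.7%) and 48 in the second VAL library (55.2%, 44.7 to 65.2%). These genes had a median of 8 annotated start sites, more than the 5 of the mitochondrial set. The nuclear genes of the respiratory chain and the ATP synthase, whose mitochondrial partners the mitochondrial ribosome makes, were bound in 19 of 77 cases in the OCI-Ly1 library and in the second VAL library (24.7%, 16.4 to 35.4%) and in 4 in the first VAL library (5.19%, 2.04 to 12.6%). Of all protein coding genes, 19.0% were called in the OCI-Ly1 library, 3.14% in the first VAL library and 20.8% in the second VAL library. In every library the interval of the respiratory chain genes included that share. The interval of the mitochondrial ribosomal genes overlapped with those of the cytosolic ribosomal and the respiratory chain genes in every library, and the differences were not tested.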

How the data were processed

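FLI1 ChIP-Seq peak lists of 3 libraries were used. Per the methods of the study, reads were mapped to GRCh37 with bowtie2 and filtered with SAMtools, and peaks were called with HOMER at a false discovery rate of 0.001, which equals the −log10 q of 3 used here, while the deposited lists have the columns of MACS2 and the submitters' processing notes name CASAVA 1.4, BWA and hg19; which caller, control and settings made the deposited lists is not given in the sources used here. The authors' lists, called per library, hold for each peak a fold enrichment, a −log10 p and −log10 q, and a score. The score is 10 times the −log10 p and was not used. The fold was read as the ratio of the pileup to the local background, with the same constant added to both. Read totals were not used, so depth is known only through the reads at each summit, inferred from fold and p-value with a Poisson model.

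Gene models were GENCODE release 44 lifted to GRCh37, and bases came from the GRCh37 genome. A gene's best peak was the one with the highest −log10 q centred within 3 kb of a TSS, and a gene with none was set to 0. Shares have Wilson 95% intervals, which cover counting error only. No test was made, since OCI-Ly1 has 1 usable library and genes are not replicates. The canonical TSS was tagged for 19881 genes and the outermost TSS stood in for the rest, and a neighbour was head to head with its canonical TSS up to 1 kb upstream or 200 bp downstream. Motifs were counted on both strands, and overlapping matches on opposite strands counted as 1 site in a promoter.

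The members and lists were chosen with earlier results of these data known. Named genes are all members by pattern, with values for those bound in all 3 libraries or in VAL replicate 1, the 5 with the highest values in each library and those with a deciding value of 2.7 to 3.3, and the 3 of each other list with the highest lower value of OCI-Ly1 replicate 2 and VAL replicate 2. MRPL2, MRPL12, MRPL34, MRPL40, MRPL46 and MRPS11 were named with values after their values were seen. Sequences on chromosome 8 and 1 other sequence are not reported here. Scripts were tested on simulated data. Computation was in python 3.11.15 with pandas 2.3.3, numpy 2.4.6, matplotlib 3.10.9 and scipy 1.17.1. Alternatives covered the threshold, the TSS window and its centre, the canonical TSS, the closest gene, a minimum fold of 4, the libraries and the motif.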

Additional observations from a re-analysis of the deposited data

How the results depend on the processing

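Of 83 alternatives, 64 left the value within its limits and 19 moved it. In every one of the 7 alternative thresholds and windows per library, the share of members stayed above that of the other coding genes, but at a −log10 q of at least 5 in the first VAL library its interval (0.706 to 8.88%) reached the 1.78% of the others. At a −log10 q of at least 5, 2 members remained bound in the first VAL library and 1 in all 3 libraries, and the other coding genes bound fell to 2385, 358 and 2443 in the OCI-Ly1 library, the first VAL library and the second VAL library; at 2 they numbered 5908, 1021 and 6687. Members bound in both lines numbered 21 without the first VAL library and 7 without the second VAL library, and members bound in at least 1 library ranged from 28 to 35 as each library was left out. The motif share at bound summits, in the same order of libraries, was 3.57%, 12.5% and 3.57% for ACCGGAAGT and 100%, 100% and 85.7% for GGAA. Within 100 bp it became 100% in the first VAL library and 82.1% in the second VAL library. In control windows moved to 1000 bp away, the motif share was 0.0% in the OCI-Ly1 library and the second VAL library. Fewer genes pass a higher threshold by construction, and a longer motif matches less often; no other cause was tested. No paired analysis was possible because no result comes from a test between groups and OCI-Ly1 has 1 usable library. Calls rest on few reads, so a weak site can be missed.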

Other observations

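Motifs of other factors also stood in the promoters of the mitochondrial ribosomal genes, read over the same window around the canonical start site. AAGATGG, the core of a site for YY1, a zinc finger factor known to act on mitochondrial genes, was in 25 of 78 promoters (32.1%) and in 6.35% of the other coding promoters. Of the 25 genes with it, 7 were bound by FLI1 in at least 1 library (28%), and these were MRPL20, MRPL38, MRPL47, MRPL51, MRPL52, MRPS16 and MRPS18B, against 28 of the 53 without it (52.8%). The share over all protein coding genes on this call was 27.4%, close to that of the 25 genes. Among the other coding genes the order was the opposite, with 32.1% bound in at least 1 library with the motif and 27.04% without it. The motif was also in 19.54% of the promoters of cytosolic ribosomal protein genes and 28.6% of those of the respiratory chain. Cytosolic ribosomal genes had the order of the members, with 10 of 17 bound in at least 1 library with it (58.8%) and 50 of 70 without it (71.4%). Respiratory chain genes had the opposite order on this call, with 8 of 22 bound with it (36.4%) and 18 of 55 without it (32.7%). Their order changed with the call. In the OCI-Ly1 library 27.3% were bound with the motif and 23.6% without it. In the second VAL library it was 18.2% and 27.3%, and in both lines 9.09% and 18.2%, which is the order of the members. With a longer form of 10 bases the motif was in 13 promoters of members (16.7%) and 1.92% of the others, and 3 of the 13 were bound in at least 1 library (23.1%) against 32 of 65 (49.2%). The difference between members and other genes was not tested, and the motifs were chosen with the FLI1 calls known.

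GCATGCG, part of the site of NRF1, a known regulator of nuclear genes for mitochondria, was in 8 of 78 promoters of members (10.3%) and in 5.08% of the others. The longer form of 10 bases turned that order, with 1 of 78 (1.28%) against 1.69%. GGGCGG, the core of sites for SP factors, was in 60.3% of members and 60.96% of the others. The matches describe letters in a window and not bound sites.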
